A study of Xenopus laevis with 18 samples.

Results

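Gastrulation in Xenopus laevis embryos depleted of SUMOylation was followed by setting 3 arrays of late gastrula embryos against 3 arrays of early gastrula embryos, all injected with Gam1 mRNA. These are 6 of the 18 arrays of the series, chosen by their labelled treatment and stage and paired by replicate number. A further 6 arrays of water-injected embryos at the same stages serve for comparison, and the early neurula arrays of the series were not used here. Gam1 is a protein of an avian adenovirus that triggers the destruction of the E1 enzyme, the enzyme that activates SUMO before it is joined to other proteins.

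Fertilized eggs received 0.5 ng of Gam1 mRNA in 9.2 nL, injected into the animal hemisphere at the one-cell stage, or the same volume of water. Each sample was a pool of 20 whole embryos, collected at 9 h for early gastrula and 13.5 h for late gastrula. Per the methods, the biological replicates cover variation between egg clutches. Since water embryos got no RNA at all, the effect of injected RNA as such cannot be told apart from that of Gam1. No probe set carries the name of the injected RNA, so the treatment labels could not be checked from it.

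Gastrulation is the stage at which the germ layers take their places. Mesoderm and endoderm move inside through the blastopore, the dorsal organizer releases antagonists of BMP and Wnt proteins, and the body axis narrows and lengthens by convergent extension. Genes of the zygote set the identity of the layers while RNAs that the mother stored in the egg are cleared. Wnt, FGF and retinoic acid signals posteriorize the trunk, and the Hox genes begin to mark position along it. SUMO is a small protein that is attached to many transcription factors and chromatin proteins, and its loss is studied here for its bearing on this program.

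Levels are array signals on the log2 scale, so a difference of 1 is a 2-fold difference, and they can be compared between arrays for a probe set but not between probe sets. The lowest value on any array was 2.07 and the highest was 16.1, and the median of every array was 7.71. Of 23701 probe sets, 71 Affymetrix controls were left out and 23630 were tested. One gene symbol was available for 12258 of them, which stand for 9149 genes when the L and S copies of this tetraploid species are counted apart. A gene was called as risen or fallen where limma gave an adjusted p under 0.05. A probe set within 0.5 of the lowest value on all 3 arrays of a group is called near the floor, and a change that starts or ends there is understated by an unknown amount. In these bulk samples, fewer cells of a type and less RNA per cell cannot be told apart.

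Stage was the main difference among the 12 gastrula arrays. The first principal component held 78.9% of the variance and placed every early gastrula array between -170 and -109 and every late gastrula array between 117 and 172. Within early gastrula, the Gam1 array of replicate 2 lay lowest on this component and that of replicate 3 lay highest, as did the water arrays of the same numbers. In replicates 1, 2 and 3 the late Gam1 arrays lay at 153, 121 and 117, below the late water arrays at 172, 131 and 129. The early arrays lay at -138, -170 and -109 in Gam1 and at -128, -169 and -109 in water embryos. Embryos were collected at fixed hours, and whether Gam1 embryos developed more slowly was not tested. Correlations between arrays of a group were 0.957 to 0.968 in early and 0.963 to 0.979 in late gastrula Gam1 embryos, and the median SD of a probe set over the 3 replicates was 0.294 and 0.262. The embryos carried the markers of all germ layers at late gastrula. In the 3 late Gam1 arrays the mesodermal tbxt.S stood at 12.69, 12.67 and 12.79, the endodermal gata4.L at 11.43, 11.92 and 11.84, and the epidermal keratin krt12.4.L at 13.54, 12.66 and 12.99. Between the stages 9 Affymetrix control probe sets changed by -0.315 to 0.708 in Gam1 and by -0.379 to 0.652 in water embryos, and called changes of genes within this range are no larger than those of the controls. The globin gene hba3.L stayed between 2.72 and 3.16 on all 6 Gam1 arrays.

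From early to late gastrula 5777 probe sets, 24.4% of those tested, rose in Gam1 embryos and 7187, or 30.4%, fell. Counted as 1 probe set per gene symbol, 2138 genes (23.4%) rose and 3038 (33.2%) fell. In water embryos 5878 probe sets (24.9%) rose and 7480 (31.7%) fell. The median change over all probe sets was -0.07 in Gam1 and -0.08 in water embryos. Since normalization gave every array the same median, values near 0 are no result about the embryos. Between 2701 and 3990 probe sets rose and between 3593 and 4992 fell in Gam1 embryos when one replicate pair was left out, the lowest counts being those without replicate 1.

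Rises reached further than falls. Among probe sets that rose, the median rise was 1.60 with quartiles of 0.86 and 2.87, and among those that fell the median was -1.42 with quartiles of -2.23 and -0.89. Over the 4.5 h between the stages, the median rise amounts to one doubling in 2.82 h and the median fall to one halving in 3.17 h, if the change is taken as even. These medians cover only probe sets that passed the test. The signals are normalized between arrays, so the rates are relative and not those of RNA amounts per embryo. A change of at least 2 was reached by 40.5% of rising and 31.0% of falling probe sets. A change of at least 4 was reached by 770 rising probe sets, 13.3%, and by 313 falling ones, 4.36%. At 8 or more there were 28 rising probe sets and 0 falling ones, against 39 and 1 in water embryos. A group of 100 probe sets, 52 of them with a gene symbol, went from near the floor on all 3 early arrays to a level of at least 6 on all 3 late arrays. In water embryos 113 did so, and 72 probe sets did so in both. The opposite course, from at least 6 to near the floor, was taken by 25 probe sets in Gam1 embryos, by 37 in water embryos and by 20 in both.

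**Figure D1:**
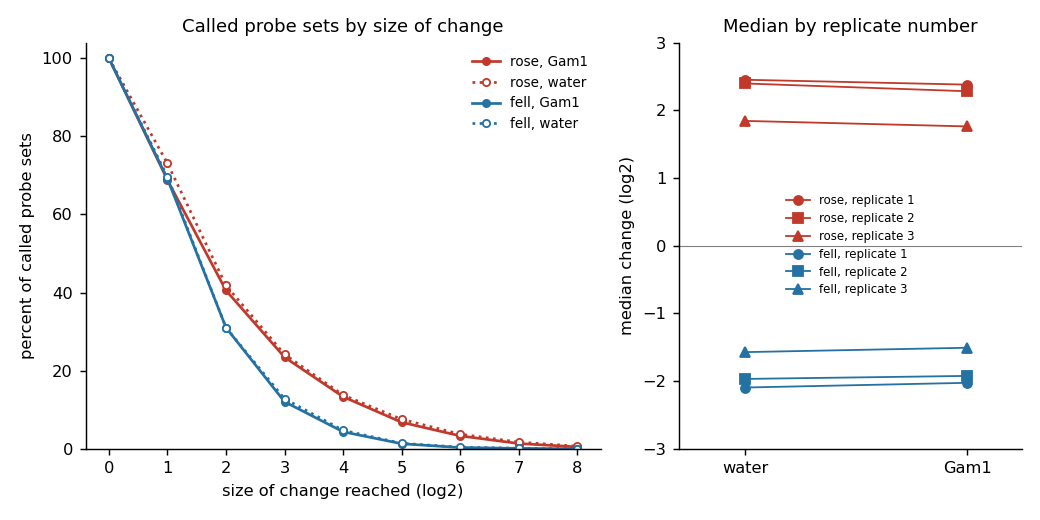
Left, share of the risen and of the fallen probe sets (y axis, percent) whose change from early to late gastrula reached the size on the x axis (log2), with filled points for Gam1 and open points for water embryos. Right, median change (y axis, log2) of the probe sets chosen on both treatments, joined by replicate number. In Gam1 embryos 13.3% of rises and 4.36% of falls reached 4, and replicate 3 has the smallest medians in both treatments.

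The gene with the largest rise was msgn1.L, which encodes mesogenin, a transcription factor of presomitic mesoderm. Its level was 2.07, 2.10 and 2.16 in early and 12.08, 11.72 and 12.09 in late gastrula Gam1 embryos, so that all 3 early arrays lay near the floor. The change was 9.86 ± 0.18 (SE) with an adjusted p of 0.00488, one doubling per 0.457 h, and in water embryos it was 9.77. Keratin, posterior and endodermal genes were among the other genes of the 15 largest rises. The keratin gene krt70.L rose by 9.76 and krt12.5.S by 9.41. The early values of these 2 genes differed widely between replicates, from 2.22 to 6.23 for krt70.L. The myogenic factor myf5.L, at 2.07, 2.33 and 2.07 and then at 10.83, 10.84 and 10.94, rose by 8.71 ± 0.19. The posterior homeobox genes cdx4.L and cdx2.L rose by 8.58 and 8.47 and the cement gland gene ag1.S by 8.37. The connexin gene gjb2.L rose by 8.24 and the endodermal gene darmin.L by 8.07, while a further probe set of each had a change of 3.70 and 3.71.

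The largest falls reached close to 8. Gene fbxo43.S encodes Emi2, the inhibitor of the anaphase-promoting complex that holds the egg in meiosis. It went from 9.57, 11.12 and 8.63 to 2.07 on each late array, a fall by 7.70 ± 0.58 with an adjusted p of 0.00558. In water embryos all 3 late arrays also stood at the floor. The zinc finger gene zfp36l2.1.S, whose protein family destabilizes mRNA, fell by 7.91, and btg4.L, which encodes an adaptor of the deadenylase complex, fell by 6.36. For cpeb1.L, which encodes the cytoplasmic polyadenylation factor, the levels were 10.35, 12.50 and 9.71 and then 4.50, 5.32 and 4.23, a fall by 6.17 ± 0.41. For fbxo43.S, zfp36l2.1.S, btg4.L and cpeb1.L every early array stood above every late array, and replicate 2 was the highest at early gastrula. Gene menf.1.L, also among the 15 largest falls at -7.02, had the opposite order, with 9.77, 8.31 and 10.45 at early gastrula.

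The course of most genes was shared with water embryos. Of the probe sets that rose in Gam1 embryos 5087, or 88.1%, also rose in water embryos, and these are 86.5% of those that rose in water. Likewise 6491 fell in both, which is 90.3% of the Gam1 falls and 86.8% of the water falls. The opposite call was made for 5 probe sets, which rose in Gam1 and fell in water embryos, and for 0 the other way round. Over all probe sets the 2 changes correlated at 0.978, a description of arrays that share normalization and clutches.

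**Figure D2:**
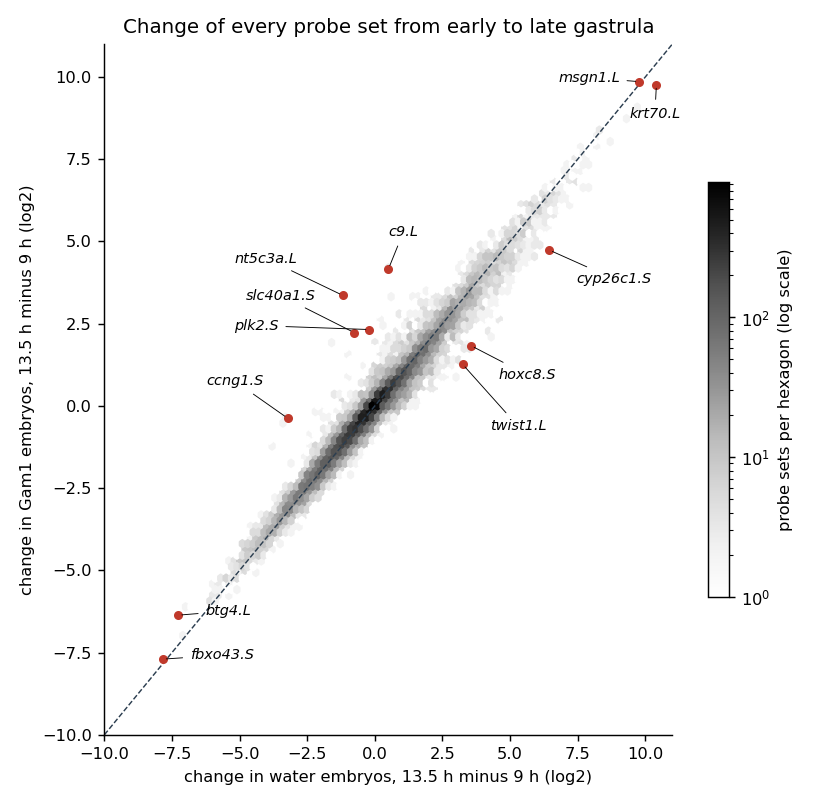
Change from early to late gastrula in water embryos (x axis, log2) against the change in Gam1 embryos (y axis, log2) for the 23630 probe sets, with named genes marked. Most points lie along the diagonal, while nt5c3a.L lies above 0 in Gam1 and below 0 in water embryos.

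To compare the size of the program, probe sets were chosen on the mean change of both treatments, which favours neither. Over 4523 probe sets that rose by at least 1 on this mean, the median rise in Gam1 embryos was 2.38, 2.28 and 1.76 in replicates 1, 2 and 3, and in water embryos it was 2.45, 2.40 and 1.84. The Gam1 median was the smaller in each replicate, by 0.0717, 0.115 and 0.0812, and replicate 3 had the smallest changes in both treatments. The mean difference was -0.0892 ± 0.0225 (SD, n = 3), so that the Gam1 rise was 96.0% of the water rise on the log2 scale. Over 5392 falling probe sets the Gam1 medians were -2.03, -1.92 and -1.51 against -2.09, -1.97 and -1.57 in water embryos. That difference was 0.0594 ± 0.0133 (SD, n = 3), and the Gam1 fall was 96.8% of the water fall. With 3 replicate numbers the exact two-sided sign-flip permutation test gave p = 0.25 in both directions, which is the smallest p it can give.

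The germ layer lists below were drawn up with earlier results of these data known, so they carry counts and medians but no test. Over all 9149 genes 23.4% rose and 33.2% fell in Gam1 embryos, and the counts of each list are to be read beside these shares. The median change over all genes was -0.10 in Gam1 and -0.14 in water embryos. The difference between the Gam1 and the water change had an unadjusted p under 0.05 toward a more positive value in 7.32% of genes and toward a more negative value in 6.6%. The Gam1 change was below the water change in 44.0% of all genes. At an adjusted p under 0.05 over all probe sets 2 differences were called, which is 0.00846%, and no list member was among them. Naming genes for their difference favours groups of Gam1 and water arrays that do not overlap. The share of all probe sets without such overlap is not given, so statements of no overlap below describe the named genes only.

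Genes of posterior and ventral mesoderm came on in Gam1 embryos. Of 46 measured genes of ventral, lateral and posterior mesoderm 25 rose and 4 fell, with a median change of 2.05 against 2.36 in water embryos. The homeobox gene evx1.L, active in posterior mesoderm, rose by 5.78, with late values of 7.91, 7.87 and 8.23. Brachyury, the T-box factor of mesoderm and notochord, is represented by tbxt.L and tbxt.S. The level of tbxt.L was 4.25, 3.62 and 9.01 at early and 12.48, 12.69 and 12.89 at late gastrula, with replicate 3 far above the other early arrays. It rose by 7.06 ± 1.22 with an adjusted p of 0.0184, and tbxt.S rose by 4.00. Of the 4 falls, 3 were of genes that act early. The homeobox gene bix1.1.L, a target of Nodal signals, went from 12.54, 11.79 and 11.99 to 8.30, 8.45 and 8.01 and fell by 3.85. The related mix1.L fell by 2.04 ± 0.54, and vegt.L, the T-box gene that starts endoderm and mesoderm formation, fell by 0.71. The fourth, hand1.L, a helix-loop-helix gene of heart and lateral mesoderm, fell by 0.91 ± 0.14. Its level was low, at 2.87, 2.80 and 3.92 and then at 2.12, 2.07 and 2.68, close to the floor. It was not called in water embryos, where its change was -0.16. Its difference had an adjusted p of 0.389.

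The forkhead gene foxc1.L, expressed in paraxial mesoderm, was lower in Gam1 than in water embryos at early gastrula and reached nearly the same level later. It stood at 3.37, 3.79 and 4.05 in early Gam1 and at 4.91, 5.14 and 5.40 in early water embryos. At late gastrula it stood at 10.90, 11.05 and 11.55 against 11.28, 11.23 and 11.96. The early groups did not overlap, and the Gam1 rise of 7.43 exceeded the water rise of 6.34 by 1.09 ± 0.12 (adjusted p = 0.0651). The test was also restricted to the 19599 probe sets that averaged 4 or more over the 12 arrays. There the adjusted p of this difference was 0.0258. A probe set whose early mean was under 4 in both treatments passes this restriction only through its late levels, which the difference also uses. For such probe sets, among them those of hoxc5.L, actc1.L, hesx1.S and twist1.L, the restricted values are no support and are not printed. For the others they are a description and do not replace the adjusted p over all probe sets. Restricted values are printed below only where under 0.05. They were over 0.05 for genes such as foxj1.S (0.0806) and btg4.L (0.144). The forkhead gene foxf1.L of lateral mesoderm took the opposite course to foxc1.L. Its late level was 7.24, 6.97 and 6.76 in Gam1 and 8.74, 7.85 and 8.01 in water embryos, and its rise was smaller by 1.12 ± 0.20 (unadjusted p = 0.00144, adjusted p = 0.158).

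Organizer and axial mesoderm genes rose more often than they fell. Of 25 measured genes 12 rose and 3 fell, with a median change of 2.40 against 2.15 in water embryos. The BMP-type ligand gene admp.S, at 9.39, 9.74 and 9.41 and then at 11.45, 11.74 and 11.56, rose by 2.07 ± 0.07, which is 4.19-fold. The early and late arrays were tightly grouped and did not overlap. Among the others, foxa2.L, a forkhead gene of floor plate and endoderm, rose by 6.89, the signal gene shh.L by 4.16 and the Wnt antagonist gene dkk1.S by 2.16. A further probe set of foxa2.L had a change of 3.18. The homeobox gene sia1.L, which starts the organizer under maternal Wnt signals, fell by 4.22 ± 0.14, from 7.01, 6.45 and 6.16 to 2.82, 2.07 and 2.07. The notochord homeobox genes not.L and not.S each fell by 1.25. For goosecoid, the homeobox gene of the organizer, neither copy passed the test. The level of gsc.S was 9.69, 8.47 and 10.67 at early and 8.32, 8.38 and 8.14 at late gastrula (adjusted p = 0.117), and in replicate 2 the stages were nearly level.

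Early gastrula replicates differed widely in some organizer and endoderm genes. For cer1.S, a secreted antagonist of Nodal, BMP and Wnt, early levels were 7.92, 6.17 and 11.08 in Gam1 and 8.63, 6.75 and 11.46 in water embryos. Replicate 3 was highest and replicate 2 lowest in both treatments, as they were on the first principal component. By late gastrula the Gam1 arrays stood at 12.74, 13.31 and 13.35. The rise of 4.75 ± 1.07 had an adjusted p of 0.0324. The same order of the early Gam1 replicates was seen for frzb.L, a Wnt antagonist gene, at 8.11, 5.77 and 9.24, and for gata4.L at 6.23, 3.32 and 9.44.

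Of 32 measured endoderm genes 14 rose and 7 fell, with a median change of 1.32 against 1.10. The rise of gata4.L was 5.40 ± 1.36, that of gata6.L 5.92 and that of gata5.L 4.73, all of them zinc finger factors of endoderm. These 3 genes and sox17a.S were named after their values were seen. The HMG-box gene sox17a.S, which specifies endoderm, rose by 1.57, and foxa1.S by 4.91. The 7 falls included Nodal ligands and the homeobox genes bix1.1.L and mix1.L. Gene nodal2.L went from 9.08, 7.94 and 9.33 to 3.73, 2.51 and 2.30 and fell by 5.94 ± 0.45. Gene nodal1.L fell by 4.79 and nodal.L by 1.60. In 28 of the 32 genes the Gam1 change was above the water change, with an unadjusted p under 0.05 for 6 of them, and for 0 of the 4 below.

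**Figure D3:**
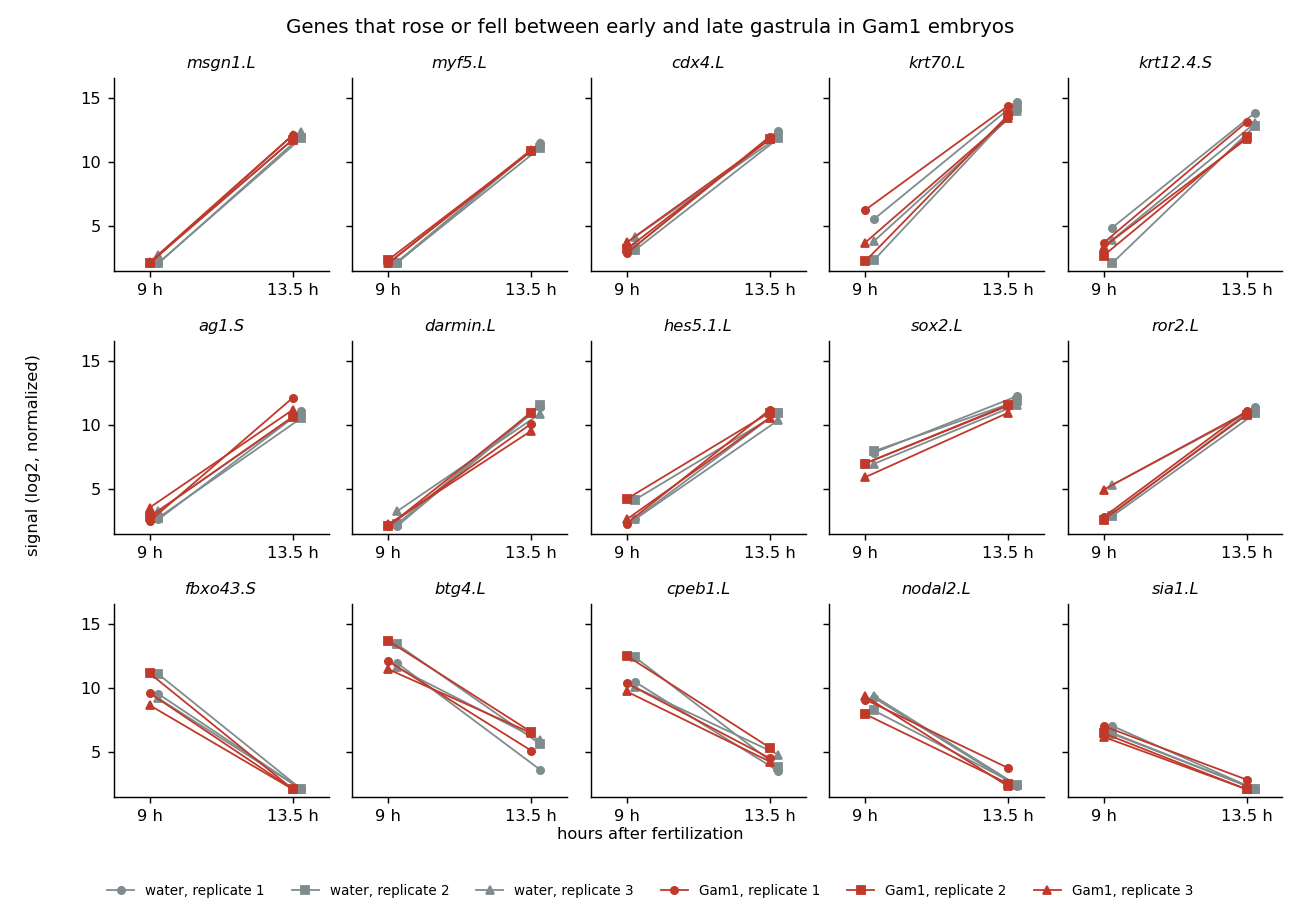
Level (y axis, log2 array signal) on each of the 3 early and 3 late gastrula arrays of Gam1 and water embryos for genes of the gastrulation program, with lines joining arrays of the same replicate number. In Gam1 embryos msgn1.L and myf5.L rise from 2.33 or less on every early array, while fbxo43.S falls to 2.07.

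Muscle and somite genes rose where they were called. Of 21 measured muscle and somite genes 10 rose and 0 fell, with a median change of 0.49 against 0.97 in water embryos. Gene myod1.S, a master regulator of muscle, went from 2.69, 3.16 and 2.60 to 9.99, 9.50 and 9.29 and rose by 6.78 ± 0.27, against 6.61 in water embryos. The actin gene actc1.L rose by 6.27 and the myosin light chain gene myl1.L by 5.46. Their late levels were lower in Gam1 than in water embryos in every replicate. For actc1.L they were 9.05, 8.19 and 8.09 against 10.79, 9.02 and 9.26. Its rise was smaller by 1.30 ± 0.25 (unadjusted p = 0.00218, adjusted p = 0.175), and a further probe set of the gene gave a rise of 4.64 against 6.24 in water embryos. In 17 of the 21 genes the Gam1 change was below the water change, and for 7 the unadjusted p was under 0.05, against 1 of the genes above it. Without the 3 genes near the floor at both stages it was below in 14 of 18.

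Neural plate genes rose. Of 40 measured neural plate genes 22 rose and 7 fell, with a median change of 1.89 against 2.29 in water embryos. The pan-neural gene sox2.L went from 6.98, 6.97 and 5.90 to 11.48, 11.55 and 10.94 and rose by 4.70 ± 0.16, against 4.31 in water embryos. The forkhead gene foxb1.S rose by 5.46. Genes already high in early embryos fell, with gmnn.S, which encodes geminin, falling by 1.41, sox3.S by 1.05 and zic2.L by 1.30. The Gam1 change was below the water change in 25 of the 40 genes, with an unadjusted p under 0.05 for 9 of them and for 4 of the 15 above. Forebrain genes were among the 9. The homeobox gene six3.L reached 5.02, 5.15 and 4.57, while in water embryos it reached 7.84, 6.63 and 6.07, so the late groups did not overlap. Its rise was 2.18 ± 0.15 against 4.20, a difference of -2.02 ± 0.38 (unadjusted p = 0.00198, adjusted p = 0.17).

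The homeobox gene hesx1.S of the anterior neural ridge went from 2.13, 2.11 and 2.28 to 7.34, 6.21 and 6.83, and in water embryos to 8.57, 7.73 and 8.18. The difference was -1.30 ± 0.16 (adjusted p = 0.091). Its other copy hesx1.L differed by -1.32 ± 0.29 (adjusted p = 0.208). The forebrain zinc finger gene fezf2.L rose by 3.86 in Gam1 and 5.71 in water embryos, with late levels of 5.71, 6.03 and 6.43 against 8.79, 7.55 and 7.77. For the eye field gene rax.S, named here after its values were seen, the late Gam1 arrays stood at 2.19, 2.74 and 3.86 and the rise was not called (adjusted p = 0.139).

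Neural crest and plate border genes rose in 21 of 31 measured genes and fell in 2, with a median change of 1.62 against 2.21. The BMP-responsive homeobox genes of the border were strong, with rises of 7.36 for msx1.L, 6.22 for msx1.S and 6.30 for msx2.L. The paired-box gene pax3.S rose by 5.77, from 2.27, 2.49 and 2.07 to 8.49, 7.79 and 7.86. The ETS factor genes ets1.S and ets1.L fell by 3.09 and 1.78. The helix-loop-helix gene twist1.L, which crest cells use in leaving the neural folds, rose by 1.26 ± 0.20, from 3.41, 3.57 and 3.46 to 4.81, 5.15 and 4.27. In water embryos it reached 7.13, 6.36 and 6.16 and rose by 3.24, so no late Gam1 array reached any late water array. The difference was -1.98 ± 0.29 (adjusted p = 0.119).

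Epidermal and cement gland genes rose in 25 of 42 and fell in 4, with a median change of 1.81 against 2.76 in water embryos. The homeobox gene dlx3.L of ventral ectoderm rose by 7.43, against 7.39 in water embryos. Its 3 probe sets had changes from 3.70 to 7.43 in Gam1 embryos. The keratin gene krt12.4.S, at 3.67, 2.67 and 3.34 and then at 13.10, 11.93 and 11.79, rose by 9.05 ± 0.26. The Gam1 change was below the water change in 28 of the 42 genes, and for 15 genes the difference had an unadjusted p under 0.05, against 1 gene in the other direction. Genes of specialised epidermal cells were among the 15. Gene foxj1.S, which directs the making of motile cilia, reached 9.58, 9.90 and 10.03 in Gam1 and 10.29, 10.79 and 10.56 in water embryos, and its rise was smaller by 0.83 ± 0.16 (unadjusted p = 0.00237, adjusted p = 0.18). Gene itln1.L, which encodes a secreted lectin, reached 11.35, 9.15 and 8.27 against 12.25, 10.41 and 9.69. The late groups overlap for itln1.L, while within each replicate the Gam1 array was lower. Its rise was smaller by 1.18 ± 0.18 (adjusted p = 0.119). The keratin gene krt19.L did not pass the test in either treatment, and its change in Gam1 embryos was -0.46 against 0.00 in water embryos. The difference was -0.46 ± 0.05 (adjusted p = 0.0604, and 0.0373 among probe sets averaging 4 or more).

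**Figure D4:**
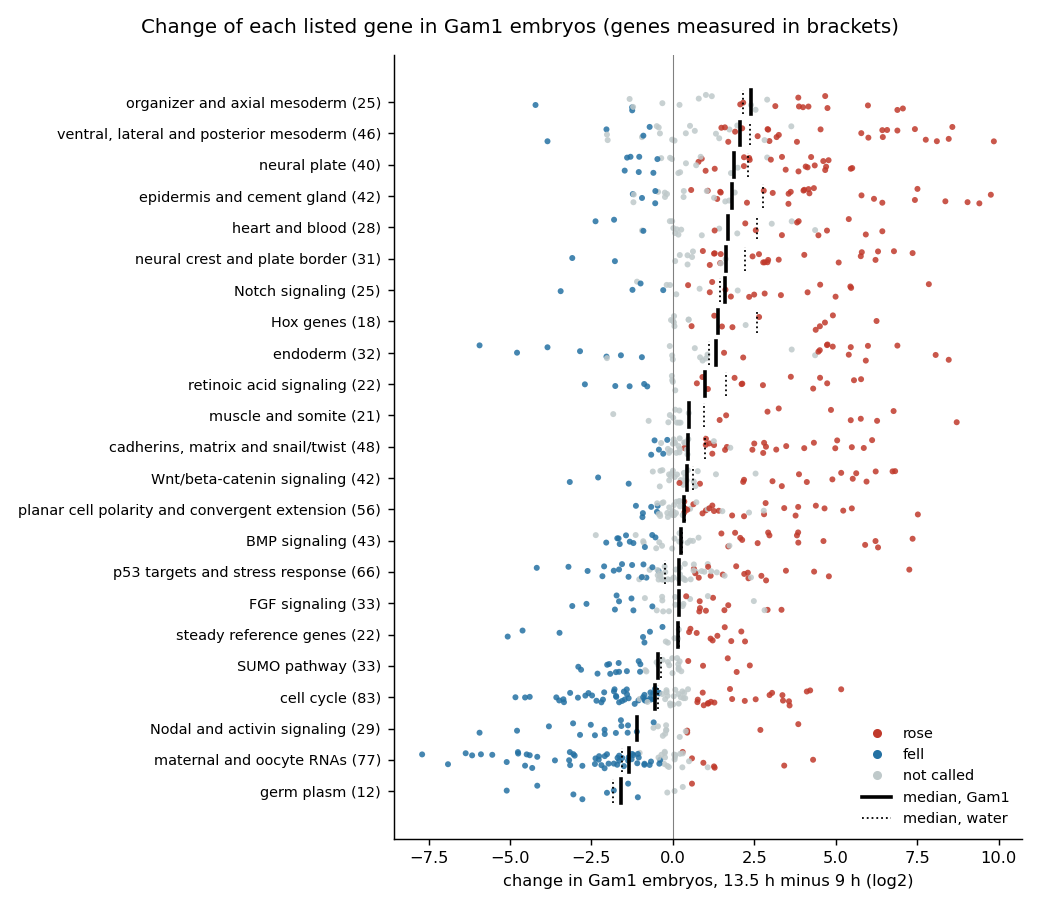
Change from early to late gastrula in Gam1 embryos (x axis, log2) of each gene of the 23 lists, coloured by whether it rose, fell or was not called, with a solid bar at the Gam1 median and a dotted bar at the water median. The Hox list has medians of 1.39 and 2.60, the endoderm list 1.32 and 1.10, and the p53 and stress list 0.20 and -0.24.

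Genes of planar cell polarity and convergent extension had nearly the same median change in both treatments. Of 56 measured genes 23 rose and 6 fell, with medians of 0.35 and 0.36. The Wnt receptor gene ror2.L rose by 7.52 ± 0.57, from 2.79, 2.59 and 4.93 to 11.11, 10.77 and 10.99, against 7.45 in water embryos. The core polarity gene vangl1.L rose by 5.23 and the cadherin gene cdh11.S by 5.49. The cytoplasmic components daam1.S, dvl3.L and dvl2.L fell by 0.94, 0.92 and 0.49. The 4 probe sets of daam1.S do not run alike, with changes from -1.49 to 2.34 in Gam1 embryos. The difference between treatments had an unadjusted p under 0.05 toward a more positive value in 7 of these genes and toward a more negative value in 3. Among the latter, the growth factor gene pdgfa.S reached 5.28, 5.55 and 4.81 in Gam1 and 7.52, 6.78 and 5.62 in water embryos. The late groups did not overlap. Its change of 0.72 was not called in Gam1 embryos, and it rose by 2.19 in water embryos (difference -1.47 ± 0.37, unadjusted p = 0.00808, adjusted p = 0.232).

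Among 48 cadherin, matrix and snail or twist genes 22 rose and 5 fell, with medians of 0.46 in Gam1 and 1.00 in water embryos. The cadherin gene of neural tissue, cdh2.L, went from 2.08, 2.07 and 2.07 to 8.19, 8.02 and 7.59 and rose by 5.86 ± 0.20, against 5.93 in water embryos. The filament gene vim.L rose by 2.44. The gene of the matrix protein SPARC, sparc.L, reached 4.95, 5.18 and 5.37 in Gam1 and 7.89, 6.25 and 6.98 in water embryos, with no overlap. Its rise was 2.50 against 4.71, a difference of -2.21 ± 0.47 (unadjusted p = 0.00355, adjusted p = 0.204). The protease gene adamts1.L fell by 0.43 in Gam1 embryos and had a change of -1.21 in water embryos, a difference of 0.78 ± 0.22 (unadjusted p = 0.0124, adjusted p = 0.255).

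Nodal genes mostly fell. Of 29 measured Nodal and activin genes 4 rose and 16 fell, with medians of -1.11 in Gam1 and -1.10 in water embryos. The Nodal antagonist gene dand5.S fell by 3.81 ± 0.17, from 11.26, 11.64 and 11.15 to 7.09, 8.17 and 7.36, while gdf1.S, the TGF-beta ligand stored in the egg, fell by 2.09 and the signal transducer gene smad2.L by 2.52. The activin inhibitor gene fst.L rose by 3.85. Among 43 BMP genes 16 rose and 10 fell. The ligand gene bmp4.L rose by 2.92 ± 0.20, and receptor genes fell, with bmpr1a.S falling by 2.05, bmpr2.S by 1.63 and acvr1.S by 1.32. Gene id2.S, a target of BMP signals, did not pass the test in either treatment, with changes of -2.37 in Gam1 and -1.45 in water embryos. These 2 changes differed by -0.92 ± 0.12 (adjusted p = 0.0946, and 0.0277 among probe sets averaging 4 or more).

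Among 42 genes of the Wnt and beta-catenin pathway 16 rose and 3 fell, with medians of 0.44 and 0.63. The Wnt target sp5.L rose by 6.82 ± 0.20, the receptor genes fzd2.S and fzd10.L by 5.52 and 4.90 and the agonist gene rspo2.L by 5.95, while the coreceptor gene lrp5.L fell by 3.17. The ligand gene wnt8b.S rose by 0.20 in Gam1 embryos and stayed close to the floor, at 2.30, 2.54 and 2.28 at late gastrula against 3.46, 2.89 and 3.41 in water embryos. Of 33 FGF genes 10 rose and 8 fell, with the receptor gene fgfr4.L rising by 1.58, the ligand gene fgf20.L rising by 2.91 and the receptor gene fgfr3.L falling by 2.65. Notch genes rose in 15 of 25 and fell in 4. The Notch target hes5.1.L, at 2.28, 4.20 and 2.61 and then at 11.17, 10.95 and 10.55, rose by 7.86 ± 0.49 against 7.61 in water embryos. Its relative hes5.3.L rose by 4.52, which was less than in water embryos by 1.04 ± 0.14 (unadjusted p = 0.0004, adjusted p = 0.114).

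Retinoic acid genes rose in 13 of 22 and fell in 5, with medians of 0.99 in Gam1 and 1.63 in water embryos. The reductase gene dhrs3.L, which limits retinoic acid, was steady between replicates at 7.05, 6.80 and 7.17 and then at 11.58, 11.46 and 11.53. It rose by 4.52 ± 0.10, which is 22.9-fold or a doubling every 0.996 h. The gene of the degrading enzyme cyp26c1.S reached 6.80, 7.26 and 6.63 in Gam1 and 8.85, 8.54 and 8.29 in water embryos, without overlap. It rose by 4.74 and by 6.44, and the difference was -1.71 ± 0.22 (adjusted p = 0.091). The 3 probe sets of this gene do not run alike, with changes from -0.03 to 4.74 in Gam1 embryos. The receptor gene rxrg.L fell by 2.70 and the corepressor gene ncor1.S by 1.77.

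Hox genes came on in Gam1 embryos. Of 18 measured genes 10 rose and 0 fell in either treatment, and 5 stayed near the floor at both stages. The median change was 1.39 in Gam1 and 2.60 in water embryos. The Gam1 change was below the water change in 18 of 18 genes, and in 13 of 13 without those near the floor. The difference had an unadjusted p under 0.05 in 10 of them. Gene hoxc6.S went from 2.41, 2.77 and 2.17 to 9.46, 8.44 and 8.20, and in water embryos to 10.64, 9.28 and 9.14. Within each replicate the Gam1 array was the lower at late gastrula, while the groups overlap. Its rise of 6.25 ± 0.35 was smaller by 1.14 ± 0.16 (unadjusted p = 0.000471, adjusted p = 0.118).

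For hoxb4.S the late groups did not overlap, with 7.52, 7.49 and 7.46 in Gam1 and 8.81, 8.02 and 8.30 in water embryos. Its rise of 4.91 was smaller by 1.18 ± 0.22 (unadjusted p = 0.00176, adjusted p = 0.166). Gene hoxc8.S reached 5.20, 3.47 and 3.28 against 7.07, 4.81 and 5.16. In both treatments replicate 1 was highest at late gastrula. The rise was 1.83 against 3.55, and the difference of -1.73 ± 0.16 had an adjusted p of 0.0589. Gene hoxc5.L rose by 4.38 against 5.47, with an adjusted p of 0.0886 for the difference. A further probe set of hoxc5.L rose by 1.78 against 3.52. By the probe set that stands for each gene, no Hox gene exceeded 2.91 on any early Gam1 array. Of the genes above only hoxc8.S was near the floor on all 3.

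Heart and blood genes rose in 11 of 28 and fell in 3, with medians of 1.70 and 2.58, and 5 genes stayed near the floor at both stages. The factor gata2.L, a zinc finger gene of ventral mesoderm and ectoderm, rose by 6.43 ± 0.75, from 5.79, 4.63 and 7.60 to 12.38, 12.68 and 12.25. The T-box genes tbx2.S and tbx3.S rose by 3.81 and 2.54 in Gam1 and by 4.72 and 3.35 in water embryos. For tbx2.S the difference was -0.90 ± 0.26 (unadjusted p = 0.0129, adjusted p = 0.259). In the whole list the unadjusted p was under 0.05 for 7 more negative and 1 more positive differences. The cardiac homeobox gene nkx2-5.S stood at 2.14, 2.27 and 2.38 at late gastrula in Gam1 and at 2.37, 2.47 and 2.80 in water embryos, close to the floor in both.

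Most maternal RNAs fell in Gam1 embryos. Of 77 measured maternal and oocyte RNAs 51 fell and 7 rose, with a median change of -1.36 against -1.56 in water embryos. The forkhead gene foxr1.L went from 11.41, 12.16 and 11.54 to 6.56, 7.23 and 7.05 and fell by 4.76 ± 0.13. Gene velo1.L, a component of the Balbiani body of the oocyte, fell by 3.06 and wee2.S, a kinase gene of the egg, by 2.20. In 65 of the 77 genes the Gam1 change was above the water change, and for 15 the unadjusted p was under 0.05, against 2 of the genes below it. For btg4.L the late Gam1 arrays stood at 5.08, 6.54 and 6.47 and the late water arrays at 3.61, 5.62 and 5.90. The Gam1 array was the higher in each replicate, and the falls differed by 0.90 ± 0.25 (unadjusted p = 0.0107, adjusted p = 0.246). The POU gene pou5f3.1.L, counted on this list, rose by 4.30 in Gam1 and 3.13 in water embryos.

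Of 12 measured germ plasm genes 8 fell and 1 rose. The median was -1.59 in Gam1 and -1.85 in water embryos, and the Gam1 change was above the water change in 11 of the 12 genes. Gene grip2.L fell by 2.78, from 11.09, 10.94 and 10.30 to 8.51, 7.79 and 7.69, dnd1.L, which encodes the germ cell protein Dead end, by 4.17, and sybu.S, which encodes syntabulin, by 5.10. The helicase gene ddx4.L, also called vasa, rose by 0.59.

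Cell cycle genes fell more often than they rose. Of 83 measured genes 42 fell and 21 rose, with medians of -0.55 and -0.46. The mitotic cyclin gene ccnb1.S fell by 4.84 ± 0.07, from 14.85, 15.06 and 14.32 to 10.01, 10.31 and 9.41, which is 28.5-fold. The phosphatase gene cdc25a.L fell by 2.69 and the replication licensing gene cdc6.S by 3.49. The replication helicase gene mcm6.2.L rose by 3.56, from 6.22, 6.45 and 6.71 to 10.20, 10.01 and 9.86, and the kinase gene cdk2.S rose by 1.27. These changes were close to those in water embryos, which were -5.22 for ccnb1.S and 3.52 for mcm6.2.L.

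Among 33 genes of the SUMO pathway 5 rose and 13 fell, with medians of -0.45 in Gam1 and -0.36 in water embryos. In Gam1 embryos 15.2% of the list rose and 39.4% fell, beside 23.4% and 33.2% of all genes. The mRNAs of the E1 subunits, named here after their values were seen, did not pass the test in Gam1 embryos. Gene sae1.L stood at 13.00, 12.90 and 12.84 and then at 12.53, 12.60 and 12.66 (adjusted p = 0.053), and uba2.L at 11.24, 11.39 and 11.40 and then at 11.52, 11.47 and 11.57 (adjusted p = 0.121). Gam1 acts on the protein, which arrays do not measure. The modifier gene sumo2.L rose by 0.47, within the range of the controls, and the ligase-type gene zmiz2.L by 2.36. The SUMO-targeted ubiquitin ligase genes rnf4.S and rnf4.L fell by 2.82 and 1.96, the SUMO ligase gene pias4.S by 2.32 and the SUMO protease gene senp1.S by 2.02. For senp1.S the change in Gam1 embryos differed from that in water embryos by -0.45 ± 0.15 (unadjusted p = 0.0245, adjusted p = 0.302).

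The 22 reference genes were not steady at this transition, with 10 that rose and 7 that fell in Gam1 embryos. The ribosomal protein gene rpl8.S rose by 2.21 ± 0.25, from 9.78, 10.50 and 10.96 to 12.57, 12.66 and 12.65, while tbp.L, the gene of the TATA-binding protein, fell by 4.62 ± 0.12. In water embryos the changes were 2.38 and -4.53. The gene hprt1.L fell by 5.07 in Gam1 and had a change of -3.87 in water embryos.

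Genes of the p53 and stress response moved in both directions. Of 66 measured genes 16 rose and 15 fell, with a median change of 0.20 in Gam1 and -0.24 in water embryos, where 16 rose and 21 fell. In Gam1 embryos 24.2% of the list rose and 22.7% fell, beside 23.4% and 33.2% of all genes. The Gam1 change was above the water change in 47 of the 66 genes, and for 13 genes the unadjusted p was under 0.05, against 3 below. Cyclin G1 is a target of p53. Its gene ccng1.S stood at 9.75, 11.60 and 9.69 at early and 10.86, 9.47 and 9.57 at late gastrula in Gam1 embryos. In water embryos it went from 9.99, 11.52 and 9.25 to 7.43, 7.24 and 6.44. The early groups overlap and the late groups do not. Water embryos had a change of -3.22, Gam1 embryos one of -0.38 that did not pass the test (adjusted p = 0.68), and the difference was 2.84 ± 0.34 (adjusted p = 0.0886, and 0.0152 among probe sets averaging 4 or more). The probe sets of this gene do not run alike, since the others changed by -0.48 and by 3.28 in Gam1 embryos.

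Further genes fell in water embryos and were not called in Gam1 embryos. They were named for their difference, and lig4.L and foxo3.L are on no list. Gene aen.L encodes a nuclease that acts in apoptosis. It stood at 9.86, 9.12 and 9.64 at late gastrula in Gam1 and at 8.40, 7.92 and 8.45 in water embryos, after early levels between 9.86 and 10.08 in both, and the difference was 1.19 ± 0.10 (adjusted p = 0.0589). The DNA ligase gene lig4.L, of end joining repair, ended at 8.86, 8.18 and 7.43 against 5.89, 6.29 and 4.85, with a difference of 2.26 ± 0.28 (adjusted p = 0.091). For foxo3.L, a forkhead gene of stress responses, the late levels were 8.96, 8.17 and 8.56 against 7.61, 7.06 and 7.46, with a difference of 1.13 ± 0.11 (adjusted p = 0.0589). A further probe set of foxo3.L fell by 2.07 in Gam1 embryos and had a change of -2.60 in water embryos. For the 3 probe sets with these differences the late groups did not overlap, which naming them for the difference favours. The share of all probe sets without such overlap is not given here. Among probe sets averaging 4 or more these 3 differences had adjusted p values of 0.0152, 0.0188 and 0.0183.

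A gain with opposite calls in the 2 treatments was that of nt5c3a.L, which encodes a nucleotidase that removes phosphate from pyrimidine nucleotides. Its level in Gam1 embryos went from 6.76, 6.36 and 6.94 to 11.32, 9.83 and 8.98, and in water embryos from 6.06, 6.30 and 5.65 to 4.58, 5.15 and 4.75. The late Gam1 arrays all lay above every other array. The gene rose by 3.36 ± 0.56 in Gam1 embryos (adjusted p = 0.0173), which is 10.2-fold, and had a change of -1.18 ± 0.21 in water embryos (adjusted p = 0.0183). The difference was 4.54 ± 0.71, with an adjusted p of 0.124 over all probe sets and 0.0323 among those averaging 4 or more. It is the only gene with a symbol among the 5 probe sets that rose in Gam1 and fell in water embryos. The rise was not called without replicate 1 (adjusted p = 0.0592) or without replicate 2 (adjusted p = 0.0794).

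**Figure D5:**
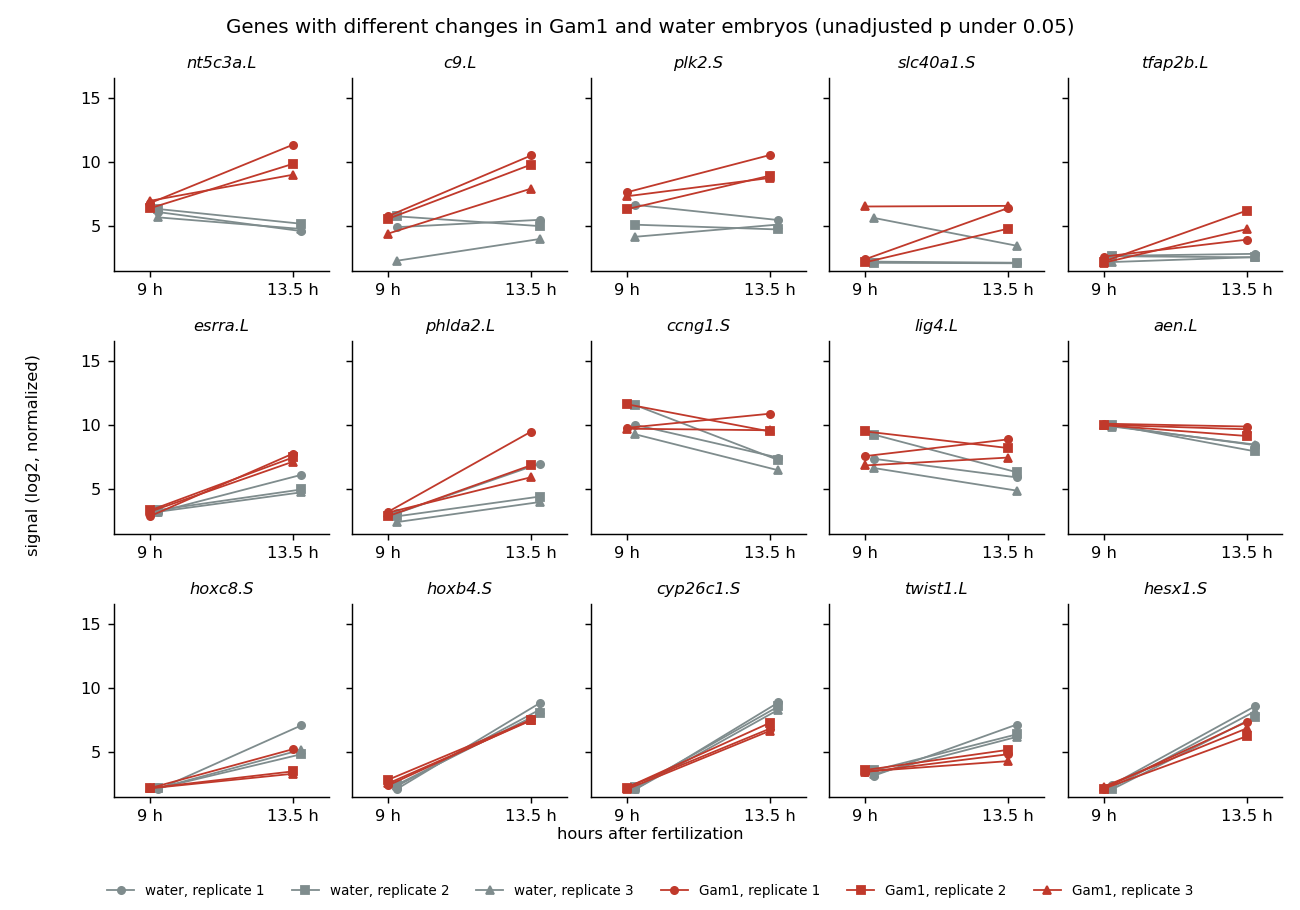
Level (y axis, log2 array signal) on each of the 3 early and 3 late gastrula arrays of Gam1 and water embryos, with lines joining arrays of the same replicate number. The genes were picked for a difference between the treatments with an unadjusted p under 0.05. None of these differences passed the test after adjustment over all probe sets. In nt5c3a.L and c9.L the Gam1 lines rise while the water lines stay low, and in twist1.L and cyp26c1.S the Gam1 lines end below the water lines.

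Gains were sought by a rule set with the values of these data known. A probe set was kept where it rose by at least 1 in Gam1 embryos, was not called as risen in water embryos, and had an unadjusted p under 0.05 for the difference. There were 106 such probe sets, with 20 gene symbols when each gene is counted by 1 probe set. The difference was more positive at this unadjusted level in 6.6% of all probe sets and more negative in 6.92%. Since the rule used these values, they are given as a description. For none of the 20 did the difference pass the test after adjustment over all probe sets. In addition to nt5c3a.L and rtcb.L, which encodes an RNA ligase, the list held c9.L, ypel2.L, parp3.L, tfap2b.L, txnrd1.L, dst.L, plk2.S, map1lc3a.S, arg2.S, enc1.2.S, znf451.L, riok3.S, slc6a13.L, gpx8.L, hspa5.S, ttc34.S, XB5832479.S and gatm.L. The last of these, gatm.L, rose by 3.55 in Gam1 and only missed the call in water embryos. Its change there was 3.31 (adjusted p = 0.0597), and its late means were 13.88 and 13.92. Except in nt5c3a.L and plk2.S, the change in water embryos was positive in each of the 20. It was 0.95 in ypel2.L (adjusted p = 0.0676), 0.90 in rtcb.L (0.0817) and 0.77 in dst.L (0.0851). The 3 probe sets of znf451.L do not run alike, with changes from -1.55 to 1.73 in Gam1 embryos. Each of the 20 rose in all 3 Gam1 pairs, so its Gam1 change must stay positive when 1 pair is left out. Of the 20, 7, 8 and 10 were still called as risen without replicates 1, 2 and 3. These counts use values that the rule had used. The 1 gene called in every case was c9.L.

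Complement component C9 forms pores in membranes. Its gene c9.L went from 5.75, 5.55 and 4.39 to 10.49, 9.78 and 7.90 in Gam1 embryos and from 4.89, 5.73 and 2.27 to 5.46, 4.97 and 3.96 in water embryos. The late Gam1 arrays stood above all others. The changes were 4.16 ± 0.31 and 0.50, and a further probe set gave 4.28 in Gam1 and 0.46 in water embryos, where it was called as risen. For the first probe set the difference was 3.66 ± 0.63. Its adjusted p was 0.148 over all probe sets and 0.0417 among those averaging 4 or more. Polo-like kinase 2 is a target of p53. Its gene plk2.S went from 7.61, 6.29 and 7.30 to 10.52, 8.91 and 8.73 in Gam1 and from 6.63, 5.08 and 4.14 to 5.44, 4.71 and 5.09 in water embryos. At early gastrula the Gam1 array was already the higher in each replicate. For plk2.S the difference was 2.52 ± 0.68 (adjusted p = 0.244).

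A few of the others are given by their late levels. The poly-ADP-ribose polymerase gene parp3.L, which acts in DNA repair, reached 9.53, 8.33 and 7.41 in Gam1 against 5.00, 4.91 and 4.28 in water embryos. The thioredoxin reductase gene txnrd1.L, near the floor on the early arrays, reached 5.39, 3.38 and 4.88 against 2.16, 2.17 and 2.61. The chaperone gene hspa5.S of the endoplasmic reticulum reached 11.91, 11.09 and 11.32 against 10.77, 10.58 and 10.55. In each of these 3 genes every late Gam1 array lay above every late water array, which the rule that kept them favours. The changes in Gam1 and water embryos were 3.26 and 0.28 for parp3.L, 2.36 and 0.13 for txnrd1.L, and 1.08 and 0.21 for hspa5.S. The differences had adjusted p values of 0.208, 0.208 and 0.165 over all probe sets.

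Some genes rose in both treatments and rose further in Gam1 embryos. The nuclear receptor gene esrra.L, a regulator of energy metabolism, went from 2.85, 3.30 and 3.20 to 7.74, 7.44 and 7.11, while in water embryos it reached 6.09, 4.94 and 4.72. The late groups did not overlap. Its rise of 4.31 ± 0.27 was larger than that in water embryos by 2.31 ± 0.26 (adjusted p = 0.0766). The gene phlda2.L, whose product has a pleckstrin domain, rose by 4.34 against 2.33. Its late levels were 9.47, 6.84 and 5.90 against 6.97, 4.39 and 3.96, with replicate 1 the highest in both treatments.

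The difference passed the test after adjustment over all probe sets in 2 cases. One has no gene symbol and fell by 1.23 in Gam1 embryos, from a mean of 8.35 to 7.12, while in water embryos its change was -3.88, from 8.54 to 4.66. The other is sult6b1.5.L, a sulfotransferase gene, which rose from a mean of 2.07 to 4.32 in Gam1 and from 2.09 to 6.24 in water embryos. The differences were 2.66 ± 0.14 and -1.90 ± 0.10, each with an adjusted p of 0.0251. Without adjustment 3194 probe sets, 13.5%, had a p under 0.05 where 1181.5 would be the nominal number. This number depended on the block. With a block by replicate number only, 542 were more positive and 558 more negative at this level, and without a block 218 and 206.

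Among the 1559 probe sets with a more positive change in Gam1 at this unadjusted level, 481 fell in both treatments, 271 rose in both, 212 fell in water embryos only and 191 rose in Gam1 embryos only. Among the 1635 with a more negative change, 641 rose in both treatments, 244 rose in water embryos only, 255 fell in both and 124 fell in Gam1 embryos only. Among probe sets averaging 4 or more, adjustment left 53 more positive and 28 more negative differences, and each group held 18 probe sets with a symbol. Of the 53, 17 fell in water embryos and were not called in Gam1 embryos, 13 rose in Gam1 embryos and were not called in water embryos, and 10 rose in both. Of the 28, 18 rose in both. Many of the 28 averaged under 4 at early gastrula in both treatments, among them probe sets of twist1.L, hesx1.S, cyp26c1.S, actc1.L and itln1.L. So did some of the 53, such as that of esrra.L. Such probe sets are in these counts only through their late levels, which the difference also uses, so the counts are no support. No difference was called when any replicate was left out, with 852 to 1284 more positive and 1073 to 1272 more negative at an unadjusted p under 0.05.

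The study followed genes of its own choice by qRT-PCR, and those with array probe sets and not given above showed the following. The cyclin copy ccng1.L stood at 11.01, 7.39 and 11.86 and then at 13.88, 13.19 and 13.61 in Gam1 embryos, and rose by 3.47 ± 0.92 (adjusted p = 0.0464). In water embryos it ended at 10.99, 10.95 and 11.11, below every late Gam1 array. The early Gam1 arrays were also the higher in each replicate, and the changes differed by 0.67 ± 0.73 (adjusted p = 0.688). Gene dmrta1.S, a doublesex-related gene of the anterior neural plate, stayed at the floor in Gam1 embryos at 2.12, 2.07 and 2.17 and reached 2.72, 2.63 and 2.59 in water embryos, a difference of -0.53 ± 0.06 (adjusted p = 0.0814). The export factor gene xpo1.S fell by 0.24 in Gam1 embryos.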

How the data were processed

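RNA of pools of 20 embryos was hybridised by the authors to Affymetrix Xenopus laevis 2.0 GeneChips. Per the methods, the deposited values are on the log2 scale after quantile normalization in Bioconductor, and the background correction and probe summary are not given in the sources used here. No counts exist for arrays, so precision rests on the 3 arrays per group.

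The members and gene lists were chosen with earlier results of these data known. Changes were fitted with limma 3.58.1 in R 4.3.3 (lmFit and eBayes with trend) on the 6 Gam1 arrays with the replicate number as a block, and p-values were adjusted by Benjamini-Hochberg over 23630 probe sets. The difference between treatments was the interaction in a fit of 12 arrays with a block for each number at each stage. The labels give the numbers, and deviations from group means correlated at 0.450 to 0.517 between early and late Gam1 arrays of the same number and at -0.394 to -0.176 between different numbers. The fit was tested on simulated data.

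Gene symbols come from the platform annotation, and where a gene had several probe sets the one of highest average signal stands for it. Such genes number 2053, of which 106 have calls in both directions. The genes named are the 15 largest rises and falls (mean of at least 6 at the higher stage, same direction in 3 pairs), the 15 smallest p in each direction of the difference (mean of at least 5 in a group), up to 4 members of each of 23 lists per direction and up to 2 by the difference, and 10 genes of the study's qRT-PCR. Others are said to be named after their values were seen. Alternatives were the unblocked fit, all 18 arrays, no trend, the methods' t-test, filters at a mean of 4 and 6, median centring, other blocks and leaving out each replicate.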

Additional observations from a re-analysis of the deposited data

Results flagged for a closer look

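The change from early to late gastrula differed between Gam1 and water embryos in 2 of 23630 probe sets by the interaction test of limma, each with an adjusted p of 0.0251. A probe set with no gene symbol fell by 1.23 in Gam1 embryos against a change of -3.88 in water embryos, a difference of 2.66. The sulfotransferase gene sult6b1.5.L rose by 2.25 in Gam1 and by 4.15 in water embryos, a difference of -1.90, with early levels at the floor in both.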

How the results depend on the processing

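Of the 208 named genes called in Gam1 embryos, 193 kept call and direction without the replicate block, 204 with all 18 arrays, 182 with the methods' t-test and 155, 169 and 182 without replicates 1, 2 and 3, and 0 took the other direction. Without the replicate block, 4958 probe sets rose and 6314 fell. Leaving out a replicate gave 2701 to 3990 risen and 3593 to 4992 fallen. The difference called 1 probe set in each direction. It called 53 more positive and 28 more negative at a mean of at least 4, and 35 and 7 at a mean of at least 6, where fewer probe sets were tested. Probe sets low at early gastrula, many of the 28 among them, pass such a filter only through late levels that the difference also uses. These counts are therefore a description and no support. Without the replicate block it called 0 and 0 (218 and 206 at an unadjusted p under 0.05), and 0 and 0 without any replicate. The cause was not tested. The size difference between treatments became -0.0546 for rising and 0.0767 for falling probe sets at a mean of at least 6, and -0.107 to -0.0944 and 0.0413 to 0.0577 when a replicate was left out.

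Genes not called changed sign when a replicate was left out. Their ranges were -0.244 to 0.183 for foxo3.L, -1.12 to 0.493 for ccng1.S, -0.342 to 0.960 for lig4.L, -0.0486 to 0.689 for LOC100158389, -0.0148 to 0.277 for ier2.L, -0.00518 to 1.08 for lmx1b.1.S, -0.257 to 1.72 for foxn4.S, -0.606 to 0.136 for gdf3.S, -0.211 to 0.297 for myh6.S and -0.138 to 0.832 for krt12.2.S. The leave-one-out of the gained genes was chosen after seeing the data.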
